A study of Homo sapiens with 12 samples.

Results

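The genes described here take part in the NRF2 antioxidant response or in redox control. They include NFE2L2, which encodes NRF2, its regulators KEAP1 and SQSTM1, and the target genes HMOX1, NQO1, GCLC, GCLM, TXNRD1 and SRXN1. The thioredoxin inhibitor TXNIP completes the set. The genes were chosen by name, with earlier results of these data known, so their shares beside all genes are descriptive only. Every probe annotated to them was taken, which gave 16 of the 47231 probes of an Illumina HumanHT-12 v4 array. All 10 genes were among the 11139 genes tested. Messenger RNA came from NT2/D1 cells, a line of human embryonal carcinoma (EC), and was read on 12 arrays in 4 groups of 3. Control cells received no drug, and 1 control group served all treatments. Other groups received 10 nM 5-aza deoxycytidine (5-aza), a cytidine analog that inhibits DNA methyltransferases, for 1 day or for 3 days with fresh drug daily. The last group received 0.5 µM cisplatin, which crosslinks DNA, for 6 hours, and was harvested after 24 hours without it. All arrays came from this 1 line, kept in serum-containing medium, and the labels name no genetic change. Of 12 EC and pluripotency markers on the array, 11 were detected on all 12 arrays and ZFP42 on none. No blood marker of 5 was detected on all arrays.

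NRF2 is a transcription factor that is made constantly and destroyed constantly, because KEAP1 hands it to a ubiquitin ligase. Oxidants and electrophiles modify KEAP1, NRF2 then accumulates, and it binds antioxidant response elements in front of genes for glutathione synthesis, quinone reduction, heme breakdown and thioredoxin recycling. Much of this control acts on protein, which the arrays did not measure. SQSTM1, the autophagy receptor p62, binds KEAP1 and is itself a known NRF2 target. TXNIP is an arrestin-like protein that binds thioredoxin and limits glucose uptake, and it is known as a glucose-responsive gene rather than as an NRF2 target.

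After 3 days of 5-aza the NRF2 regulator SQSTM1 and the thioredoxin inhibitor TXNIP rose 2.66-fold and 3.52-fold. The glutathione synthesis gene GCLM fell by 0.50 on the log2 scale. The other 7 genes did not pass the test. Among them the enzyme genes NQO1, GCLC, TXNRD1 and SRXN1 and the NRF2 inhibitor KEAP1 had log2 differences from −0.24 to −0.85, and NFE2L2 and HMOX1 stood at 0.17 and 0.13. After 1 day of 5-aza and after cisplatin none of the 10 genes passed. At 3 days 2 members were thus higher and 1 lower of 10. The share of all 11139 genes called in limma, at an adjusted p under 0.05, was 17.2% at 3 days (10.5% higher and 6.63% lower), 0% after 1 day and 1.41% after cisplatin. Values are log2 normalized intensity per array, and a log2 difference is given ± its standard error from the linear model, with n = 3 arrays per group. Levels of different genes come from different probes and are not comparable with each other.

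**Figure D1:**
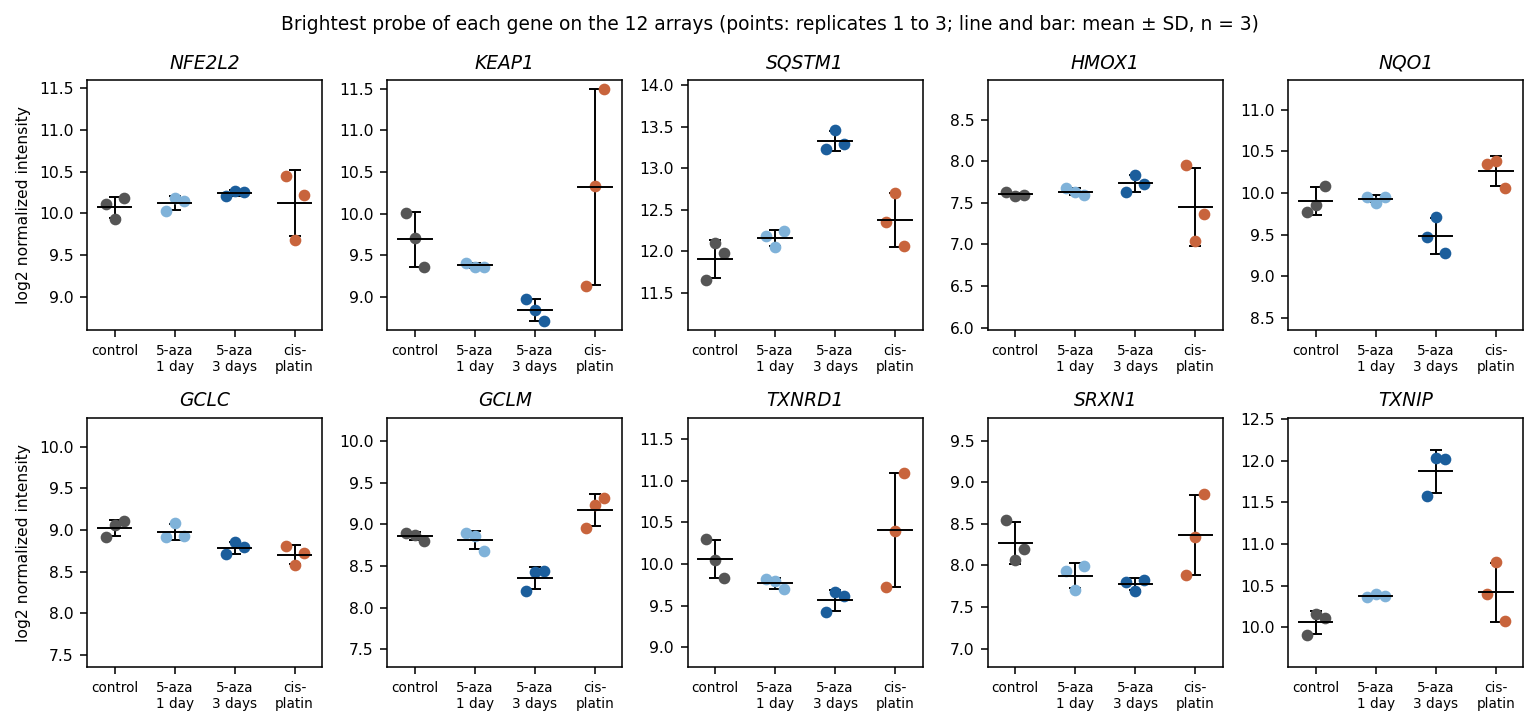
Log2 normalized intensity of the probe used for each of the 10 genes on the 12 arrays, with 1 panel per gene, groups on the horizontal axis, each array a point, and the mean ± SD (n = 3) as a line and bar; every panel spans the same number of log2 units. SQSTM1 and TXNIP on the 3 day arrays lie above all other arrays, and KEAP1 and TXNRD1 spread most widely among the cisplatin arrays.

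SQSTM1 (chr5:179806393-179838078 of GRCh38.p14) on the control arrays was 11.66, 12.10 and 11.98. After 1 day of 5-aza it was 12.18, 12.05 and 12.25, and after 3 days 13.23, 13.46 and 13.29. The cisplatin arrays gave 12.36, 12.71 and 12.06. The 3 day arrays were the highest of the 12 and overlapped with no other group, while the 1 day and cisplatin arrays overlapped with the controls. Before normalization the SQSTM1 signal was 4167 to 4855 units in controls and 7821 to 9306 units at 3 days. The difference of 3 days from control was log2 1.41 ± 0.18 (adjusted p = 0.000157), and all 26 other ways of processing or fitting called it, at 1.14 or more (adjusted p from 1.16e-06 to 0.00179).

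TXNIP (chr1:145992435-145996579) gave 9.91, 10.16 and 10.11 on the control arrays and 10.36, 10.40 and 10.38 after 1 day of 5-aza. After 3 days it reached 11.57, 12.03 and 12.02. The cisplatin arrays stood at 10.40, 10.79 and 10.08. All 1 day arrays lay above all controls and all 3 day arrays lay above all others, whereas cisplatin replicate 3 fell among the controls. The rise at 3 days was log2 1.82 ± 0.19 (adjusted p = 3.02e-05), and it remained called under each of the 26 alternatives (adjusted p from 1.19e-07 to 0.000436). At 1 day the log2 difference was 0.32 ± 0.19 (adjusted p = 0.862), with a 95% confidence interval from −0.09 to 0.73.

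The change from 1 day to 3 days was itself tested. SQSTM1 was higher at 3 days than at 1 day by log2 1.16 ± 0.18 (adjusted p = 0.00116) and TXNIP by 1.49 ± 0.19 (adjusted p = 0.000241). These were the 2 members called in that comparison, both higher, against 9.01% of all genes called and 5.84% called higher. For the remaining 8 genes the log2 difference between the times ran from −0.54 for KEAP1 to 0.12 for NFE2L2. The 3 day and 1 day arrays did not overlap for 8 members (46% of all genes); HMOX1 and SRXN1 were the exceptions. With cyclic loess TXNRD1 overlapped too (45.6% of all genes apart), and with median scaling the exceptions were NFE2L2 and HMOX1 (53.1%). GCLM and NQO1 had log2 differences of −0.46 ± 0.15 (adjusted p = 0.0784) and −0.44 ± 0.16 (adjusted p = 0.111).

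The genes most like SQSTM1 across the 12 arrays were PLAU, the urokinase plasminogen activator (Pearson r = 0.983), SCARB2, a lysosomal membrane protein (r = 0.981), and PPP1R15A, which directs a phosphatase to the translation factor eIF2α (r = 0.980). For TXNIP they were FILIP1 (r = 0.991), the adhesion receptor ADGRG1 (r = 0.990) and CYP11A1, the cholesterol side-chain cleavage enzyme (r = 0.984). All 6 of these genes rose at 3 days, from log2 0.71 for CYP11A1 to 2.78 for ADGRG1. These correlations describe 12 arrays that share the same group means. SQSTM1 and TXNIP also varied together inside the groups, with r = 0.851 after each group's mean was removed. Without control replicate 1 and cisplatin replicate 3, chosen after the values were seen, r was 0.719 over 10 arrays. TXNIP then correlated with GCLM at 0.847 and with TXNRD1 at 0.810 (0.160 and −0.307 over 12 arrays).

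Promoter stretches are shown where a search found letters of a known response element; whether these elements have a part in the measured differences was not tested. RefSeq windows of 300 bases around transcription starts (GRCh38.p14), most of each before the start, were found for 9 of the 10 genes, in 15 windows, and HMOX1 was named only. The antioxidant response element core was searched as TGACNNNGC on both strands. It occurred in 4 of the 15 windows, which belong to the 3 genes KEAP1, GCLM and TXNRD1, and in 13.3% of all 35116 windows of the same length. The carbohydrate response element, a pair of E-box-like motifs, occurred in 1 window of TXNIP and in 20 of all windows (0.057%); this element was searched because it is known from TXNIP. The E-box CACGTG was in no window of the members and in 7.26% of all windows. Parts of the windows follow, 5′ to 3′ on the strand of the gene, from 150 bases before the start to 10 after it, with the matches in capitals.

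GCLM (chr1:93909421-93909580, minus strand): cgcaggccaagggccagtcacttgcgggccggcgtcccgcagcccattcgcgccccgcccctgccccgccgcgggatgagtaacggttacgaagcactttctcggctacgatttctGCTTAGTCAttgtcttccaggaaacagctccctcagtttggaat
KEAP1 (chr19:10502762-10502921, minus strand): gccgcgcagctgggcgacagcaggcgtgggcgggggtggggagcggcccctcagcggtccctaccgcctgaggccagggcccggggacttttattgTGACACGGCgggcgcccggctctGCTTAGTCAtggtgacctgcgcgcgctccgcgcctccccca
TXNRD1, upstream start (chr12:104215629-104215788, plus strand): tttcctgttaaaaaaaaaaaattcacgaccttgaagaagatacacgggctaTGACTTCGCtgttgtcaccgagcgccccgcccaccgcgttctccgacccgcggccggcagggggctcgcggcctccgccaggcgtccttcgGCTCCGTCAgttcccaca
TXNRD1, downstream start (chr12:104286882-104287041, plus strand): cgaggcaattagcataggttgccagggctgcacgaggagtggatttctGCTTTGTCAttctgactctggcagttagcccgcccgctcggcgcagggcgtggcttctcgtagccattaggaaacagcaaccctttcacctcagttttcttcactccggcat
TXNIP (chr1:145996570-145996729, minus strand): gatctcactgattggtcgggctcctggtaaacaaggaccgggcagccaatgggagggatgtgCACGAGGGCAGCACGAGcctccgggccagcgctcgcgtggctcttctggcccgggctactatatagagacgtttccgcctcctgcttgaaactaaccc

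The core in GCLM lay 34 to 26 bases before the start, and KEAP1 held the same 9 letters, GCTTAGTCA, 31 to 23 bases before the start of 1 of its 2 windows. Both windows of TXNRD1 held a core. A match is a description of letters, not of a bound site, and NFE2L2, SQSTM1, NQO1, GCLC, SRXN1 and TXNIP had no TGACNNNGC match in these windows, which says nothing of elements elsewhere. The arrays do not tell which start was used.

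GCLM encodes the modifier subunit of glutamate-cysteine ligase, the enzyme that sets the pace of glutathione synthesis, and GCLC encodes its catalytic subunit. GCLM (chr1:93885199-93909430) on the control arrays was 8.90, 8.88 and 8.80. It was 8.90, 8.86 and 8.68 after 1 day of 5-aza and 8.20, 8.43 and 8.44 after 3 days, when all arrays lay below all controls and all 1 day arrays. The cisplatin arrays, at 8.95, 9.24 and 9.32, lay above all controls. The log2 difference at 3 days was −0.50 ± 0.15 (adjusted p = 0.0341). This call was lost in 10 of 26 alternatives, among them cyclic loess (adjusted p = 0.0597), the mean over both kept probes (adjusted p = 0.151) and the fits without any one of the control or 3 day arrays or without 1 day replicate 2 (0.0538 to 0.135; range over all arrays left out 0.0116 to 0.135). A dimmer second probe was detected on 1 control array and on no 3 day array, so it gives no fold, and it did not pass (adjusted p = 0.697 over probes, of which 12.6% passed). GCLC stood at log2 −0.24 ± 0.14 at 3 days (adjusted p = 0.264), and its groups held 8.92 to 9.10 in controls and 8.71 to 8.85 at 3 days. A further GCLC probe was detected on no array.

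NQO1 (chr16:69709401-69726560), which encodes a quinone reductase, gave 9.77, 9.86 and 10.09 on the control arrays. It was 9.95, 9.88 and 9.96 at 1 day and 9.48, 9.71 and 9.28 at 3 days. Cisplatin gave 10.35, 10.38 and 10.06. The 3 day arrays were the lowest of the 12, and the cisplatin arrays lay at or above the highest control except replicate 3. The log2 difference at 3 days was −0.42 ± 0.16 (adjusted p = 0.0920), which missed the threshold. NQO1 did pass the F test over the 3 treatments (adjusted p = 0.0228), as did SQSTM1, GCLM and TXNIP, which made 4 of 10 against 20.5% of all genes. The genes closest to NQO1 across the arrays were BRINP1 (r = 0.937), the matrix proteoglycan VCAN (r = 0.929) and THADA (r = 0.915), and those closest to GCLM were the RNA-binding protein MSI2 (r = 0.983), RAE1 (r = 0.978) and the cullin CUL1 (r = 0.975).

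**Figure D2:**
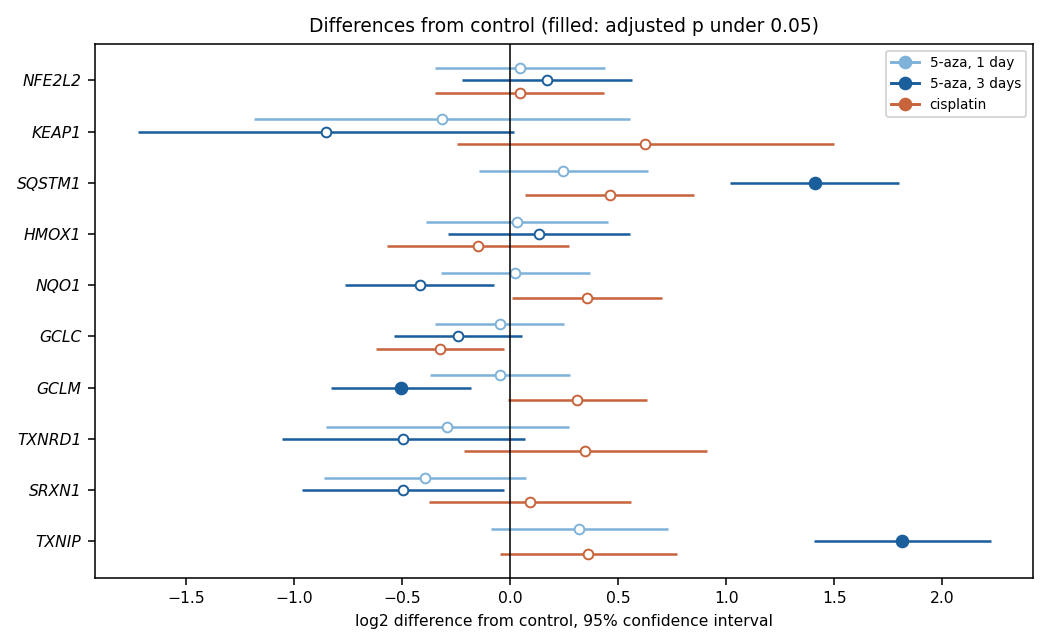
Log2 difference of each treatment from control for the 10 genes, with 95% confidence intervals from the linear model (n = 3 arrays per group); filled points passed at an adjusted p under 0.05. Only the 3 day points of SQSTM1 (1.41), GCLM (−0.50) and TXNIP (1.82) are filled, and the intervals of KEAP1 are the widest.

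KEAP1, TXNRD1 and SRXN1 varied together across single arrays, though not they alone. TXNRD1 encodes the cytosolic thioredoxin reductase and SRXN1 encodes sulfiredoxin, which repairs overoxidized peroxiredoxins. KEAP1 gave 10.01, 9.71 and 9.35 on the control arrays, 9.41, 9.36 and 9.36 at 1 day, 8.97, 8.85 and 8.70 at 3 days, and 9.13, 10.33 and 11.49 with cisplatin. TXNRD1 gave 10.30, 10.04 and 9.84 in controls, 9.82, 9.80 and 9.69 at 1 day, 9.42, 9.66 and 9.61 at 3 days, and 9.73, 10.40 and 11.10 with cisplatin. For SRXN1 the controls were 8.55, 8.06 and 8.20, the 1 day arrays 7.93, 7.71 and 7.99, the 3 day arrays 7.80, 7.70 and 7.83, and the cisplatin arrays 7.89, 8.34 and 8.85. All 3 genes were highest on cisplatin replicate 3 and, among controls, on control replicate 1, and by these probes all 3 day arrays lay below all controls.

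Inside the groups KEAP1 correlated with TXNRD1 at r = 0.961 and with SRXN1 at r = 0.888, and TXNRD1 with SRXN1 at r = 0.867, over 12 arrays. Without control replicate 1 and cisplatin replicate 3, which were chosen after the values were seen, these were 0.860, 0.662 and 0.537 over 10 arrays. Other pairs were nearly as close over 12 arrays: GCLM and TXNRD1 at 0.823 (0.873 over 10) and NFE2L2 and HMOX1 at 0.841 (0.907 over 10). NFE2L2 and KEAP1 had r = −0.304 over 12 arrays and −0.974 over 10. Among the 10 arrays, cisplatin replicates 1 and 2 stood far apart: 10.45 and 9.68 for NFE2L2, 9.13 and 10.33 for KEAP1, and 7.96 and 7.04 for HMOX1. The correlations among these 3 genes over 10 arrays therefore rest largely on those 2 arrays. The 2 kept probes of KEAP1 followed each other at r = 0.994 and those of TXNRD1 at r = 0.936, and the second probes gave log2 −0.80 and −0.33 at 3 days. By the second TXNRD1 probe the groups overlapped, since 3 day replicate 3 (9.25) lay above control replicate 3 (9.22). The remaining KEAP1 probe was detected on no array. The 3 day differences were log2 −0.85 ± 0.41 for KEAP1 (adjusted p = 0.172), −0.49 ± 0.26 for TXNRD1 (adjusted p = 0.222) and −0.49 ± 0.22 for SRXN1 (adjusted p = 0.139).

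**Figure D3:**
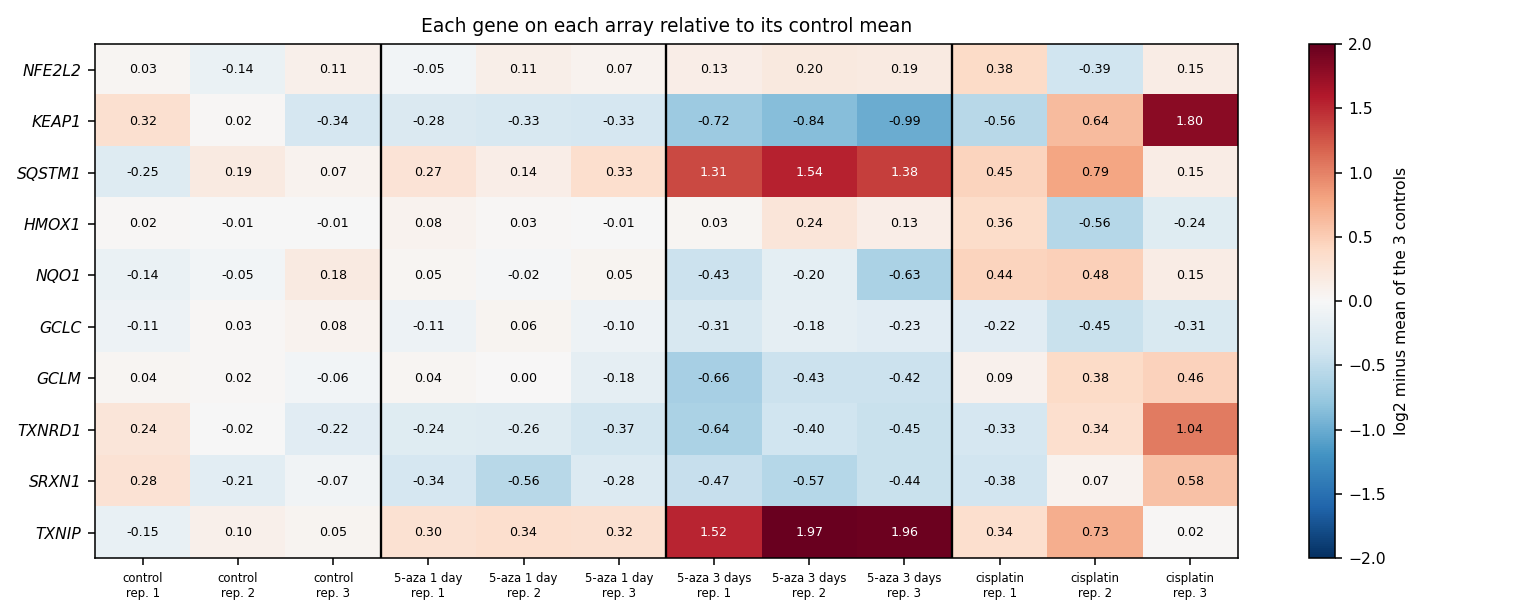
Log2 intensity of each gene on each array minus the mean of its 3 controls, with genes as rows, the 12 arrays as columns in their groups, and the value printed in each cell. The SQSTM1 and TXNIP cells are at or above 1.31 on the 3 day arrays, and KEAP1 and TXNRD1 reach 1.80 and 1.04 on cisplatin replicate 3.

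The spread of the cisplatin arrays entered these tests, since the model pools 1 variance per gene over all groups. The median standard deviation over genes was 0.354 (log2) in the cisplatin group and 0.122 to 0.172 in the others, and KEAP1 had a standard deviation of 1.18 in the cisplatin group and 0.33 in controls. Before normalization the median signal was 154.3 to 188.4 units per array, and cisplatin replicate 3 had 19824 detected probes against 15435 to 17566 on the other arrays. With the cisplatin arrays left out of the fit, 7 members were called at 3 days, and the share of all genes rose to 38.4%. KEAP1 (adjusted p = 0.00106), TXNRD1 (0.0106), SRXN1 (0.0141), NQO1 (0.0250) and GCLM were then lower, and SQSTM1 and TXNIP higher. Without cisplatin replicate 3 alone 6 members were called (28% of all genes), and without control replicate 1 only SQSTM1 and TXNIP were (8.98%).

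NFE2L2 itself and HMOX1, which encodes the inducible heme oxygenase, differed little. NFE2L2 ranged over 9.94 to 10.18 in controls, 10.03 to 10.19 on the 1 day arrays, 10.21 to 10.27 on the 3 day arrays and 9.68 to 10.45 under cisplatin. Its log2 difference at 3 days was 0.17 ± 0.18 (adjusted p = 0.574), with a 95% confidence interval from −0.22 to 0.56. The control arrays of HMOX1 gave 7.59 to 7.62, the 1 day arrays 7.59 to 7.68, the 3 day arrays 7.63 to 7.84 and the cisplatin arrays 7.04 to 7.96. Its difference at 3 days was 0.13 ± 0.20 (adjusted p = 0.694), from −0.29 to 0.55. Both differences were below 0 under median scaling, at −0.14 for NFE2L2 and −0.09 for HMOX1.

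Counted by overlap of the arrays, 10 of 10 members had 3 day arrays apart from the controls, 4 above and 6 below, where 48.6% of all genes did (26.3% above and 22.3% below). The 4 were NFE2L2, SQSTM1, HMOX1 and TXNIP. With median scaling 8 members and 44.5% of all genes were apart, since NFE2L2 and HMOX1 overlapped. The median log2 difference of the members was −0.33, beside 0.01 for all genes tested. At 3 days 3 of 11 tested EC markers fell and none rose, where 6.63% of all genes were called lower. The summed signal of those markers was 48000 to 52453 units at 3 days against 65369 to 66623 in controls. It was 61727 to 63831 units at 1 day and 48168 to 62551 after cisplatin, with no EC marker called against control in either. Of 5 neural markers tested 1 rose and 1 fell, with GFAP and SOX1 detected on no array. Their sums were 8345 to 9007 units against 5362 to 7865 in controls, and 7918 to 8953 at 1 day. Of 6 fibroblast markers 1 rose and 1 fell, with LUM on no array. Those sums were 1827 to 2162 against 2418 to 2740, and 1954 to 2400 at 1 day. After cisplatin the sums were 5601 to 9928 (neural) and 1945 to 3082 (fibroblast). Sums add linear signals, so the brightest marker weighs most. Among neural markers that was TUBB3 (log2 12.58 in controls), not called at 3 days. Among fibroblast markers it was THY1 (11.09 in controls), which fell, while COL1A1 rose by log2 1.84. The part of all these markers in the differences of the members was not tested. In a bulk sample, fewer cells of a type and less RNA per cell cannot be told apart.

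After 1 day of 5-aza no member was called by limma, and at an unadjusted p under 0.05 there were 0 members too, against 5.65% of all genes. The 1 day arrays were apart from the controls for TXNIP, which lay above, and for TXNRD1 and SRXN1, which lay below; 24.2% of all genes were apart (15.2% above and 8.99% below). With median scaling TXNRD1 and SRXN1 overlapped with the controls, SQSTM1 and TXNIP lay above them, and 17.2% of all genes were apart. SRXN1 had a log2 difference of −0.39 ± 0.22 and TXNRD1 of −0.29 ± 0.26, with adjusted p of 0.862 and 0.878.

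Cisplatin was compared with control to see what a DNA crosslinking drug does to the same genes. No member was called by limma. At an unadjusted p under 0.05 there were 3 members, SQSTM1 at log2 0.46 ± 0.18, NQO1 at 0.36 ± 0.16 and GCLC at −0.33 ± 0.14, against 21.9% of all genes. The arrays were apart for GCLM, which lay above the controls, and GCLC, which lay below, where 16.3% of all genes were apart (6.8% above and 9.47% below). This split depended on the scaling: with cyclic loess SQSTM1, NQO1, GCLM and TXNIP lay above and none below (17.4% of all genes apart), and with median scaling SQSTM1, NQO1 and TXNIP lay above and none below (11.9%). The widest uncertainty was that of KEAP1, at log2 0.63 ± 0.41. Without cisplatin replicate 1, KEAP1 (log2 1.22, adjusted p = 0.00734), TXNRD1 (0.69, adjusted p = 0.0250) and GCLM (0.42, adjusted p = 0.0405) were called higher, and 27.6% of all genes were called.

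The 3 day and cisplatin groups differ both in drug and in time, which cannot be told apart. Set against cisplatin, 3 days of 5-aza left SQSTM1 higher by log2 0.95 ± 0.18 (adjusted p = 0.00287) and TXNIP by 1.45 ± 0.19 (adjusted p = 0.000180). GCLM (−0.82 ± 0.15, adjusted p = 0.00224), NQO1 (−0.78 ± 0.16, adjusted p = 0.00446), TXNRD1 (−0.84 ± 0.26, adjusted p = 0.0318) and KEAP1 (−1.48 ± 0.41, adjusted p = 0.0190) were lower. These 6 of 10 stood beside 25.1% of all genes (15% higher and 10% lower), and the arrays were apart for 7 members against 34%. The second probes of TXNRD1 and KEAP1 also passed, at log2 −0.97 and −1.33, where 20.2% of all kept probes did. The TXNRD1 call was lost without any one of the 3 day arrays or without cisplatin replicate 2 or 3 (adjusted p up to 0.105), and the KEAP1 call without 3 day replicate 2 or 3 (0.0575 and 0.0636). With only the 6 arrays of this comparison in the fit, SQSTM1, TXNIP and GCLM were called (7.28% of all genes).

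The surrounding pathway was described with 9 lists of 175 other genes, also chosen with earlier results of these data known. Of these genes 130 were tested. After 3 days of 5-aza 23 of them were higher, 8 lower and 99 did not pass, so 23.8% were called beside 17.2% of all genes. Their median log2 difference was 0.08, beside 0.01. Without control replicate 1 there were 12 higher and 4 lower (12.3% beside 8.98%), and without the cisplatin arrays 40 higher and 22 lower (47.7% beside 38.4%). Of the 31 calls, 14 remained in each of the 12 fits without 1 array.

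The list of autophagy receptors and ATG8 proteins, which work with SQSTM1, also held other autophagy and lysosome genes. It had 5 higher and 0 lower of 17 tested (29.4% called, beside 17.2% of all genes). The calls outside the receptors and ATG8 proteins were each lost in 9 of the 12 fits without 1 array. OPTN, the receptor optineurin, was 7.21, 7.07 and 7.44 in controls and 9.71, 9.71 and 9.66 at 3 days, and it rose by log2 2.45 ± 0.19 (adjusted p = 2.01e-06). The ATG8 protein MAP1LC3A rose by 1.32 ± 0.15, with its second probe at 0.19 (adjusted p = 0.592 over probes). GABARAPL1 rose by 0.70 ± 0.21, a call lost in 8 of the 12 fits without 1 array (adjusted p up to 0.136). On the cisplatin arrays none of the 17 genes was called (1.41% of all genes), and OPTN stood at 7.26, 6.91 and 6.45.

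Glutathione genes had 6 higher and 0 lower of 27 tested (22.2% called, beside 17.2% of all genes). GSTA4, a glutathione transferase of lipid aldehydes, rose by log2 1.22 ± 0.22 (adjusted p = 0.00192), and OPLAH, which returns oxoproline to glutamate, and the microsomal transferase MGST2 rose by 0.94 ± 0.24 and 0.87 ± 0.24. The latter calls did not pass when control replicate 1, control replicate 2, 3 day replicate 2 or 3 day replicate 3 was left out, and that of MGST2 also without 3 day replicate 1. Thioredoxin and peroxiredoxin genes split, with 2 higher and 2 lower of 16 (25%). SESN1, a stress-induced sestrin, rose by 1.46 ± 0.23, and it was the member of these lists that rose most after cisplatin (2.37 ± 0.23, adjusted p = 0.000199). TXNL1 fell by 1.03 on the log2 scale, a call lost without control replicate 1, control replicate 3 or 3 day replicate 3 (adjusted p up to 0.0997), and the methionine sulfoxide reductase MSRA, called lower, was above background on 1 control array and on no 3 day array, and its call was lost in 2 of the 12 fits. NADPH supply had 0 higher and 1 lower of 11 (9.09%). The folate enzyme MTHFD1 fell by 1.33 on the log2 scale (adjusted p = 5.44e-05).

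The superoxide and peroxide list had 3 higher and 2 lower of 10 (50% called, beside 17.2% of all genes). It also held forkhead factors, which gave the 2 lower calls and 1 of the higher ones. No superoxide dismutase gene was called. The forkhead factor FOXO4 was 11.02, 10.98 and 10.80 in controls and 8.82, 8.92 and 8.89 at 3 days, and it fell by 2.06 on the log2 scale (adjusted p = 2.57e-06). FOXO3 and the copper chaperone CCS were higher by 0.81 each, with second probes at 0.24 and 0.48 that did not pass. The FOXO3 call was lost in 4 and the CCS call in 6 of the 12 fits without 1 array. Without control replicate 1 the list had 0 higher and 1 lower of 10, where 8.98% of all genes were called. Quinone, carbonyl and xenobiotic genes had 4 higher and 1 lower of 15 (33.3%). They were led by PTGR1 (0.87 ± 0.14, second probe 0.87), CBR4 (0.85 ± 0.19) and the exporter ABCC3. ABCC3 was not above background in controls and rose at least 1.40-fold. In the heme and iron list BLVRB, a biliverdin reductase, was the 1 called gene of 9 (11.1%). It was detected on the 3 day arrays alone and was at least 2.96-fold higher than control (adjusted p = 1.52e-06). The regulators and partners of NRF2 had 0 higher and 1 lower of 13 (7.69%). The acetyltransferase CREBBP fell by 1.05 on the log2 scale, a call lost without control replicate 1 (adjusted p = 0.0604). A second probe of AMER1, a gene of the same list, passed at log2 −0.87 (adjusted p = 0.00929 over probes), where its brightest probe gave −0.16.

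**Figure D4:**
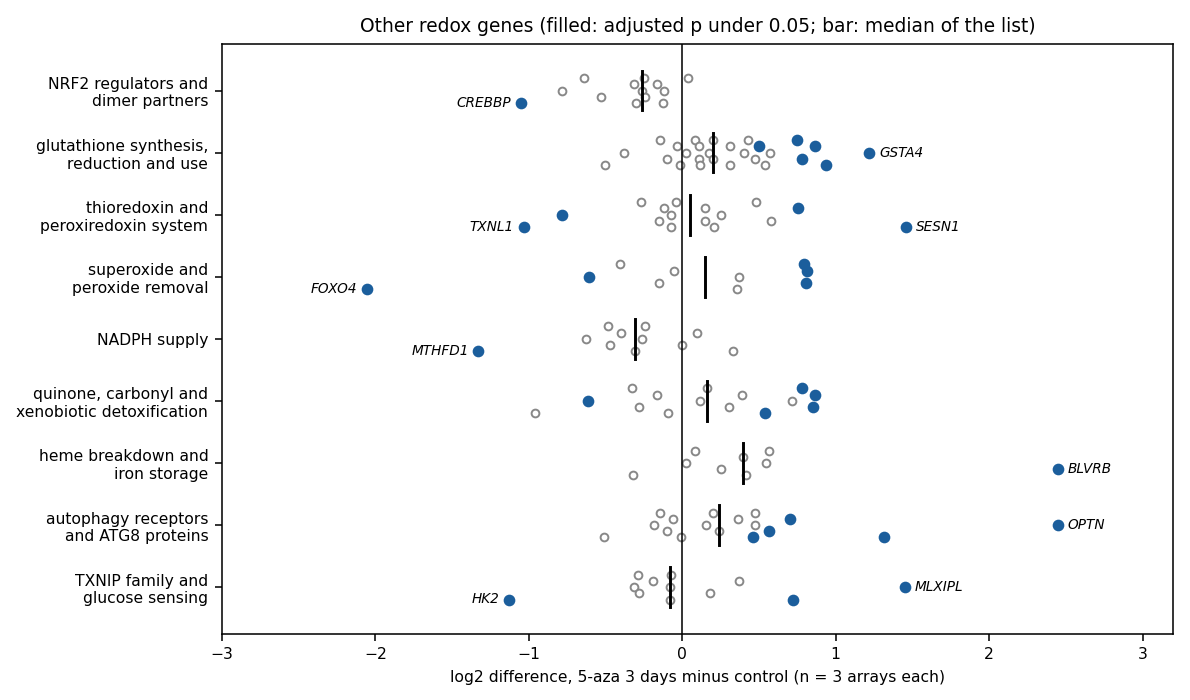
Log2 difference of 3 days of 5-aza from control for each of 130 tested genes of the 9 lists, 1 row of points per list, with genes that passed filled and the list median as a bar. OPTN and BLVRB lie farthest to the right and FOXO4 farthest to the left; BLVRB, MLXIPL, ABCC3, GSTM4 and SLC48A1 were undetected in controls and MSRA, EPHX1 and ARRDC4 on the 3 day arrays, so their plotted values are fitted ones against a group at background.

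The list of the arrestin family of TXNIP and its glucose-sensing regulators also held glucose handling and other genes. It had 2 higher and 1 lower of 12 (25% called, beside 17.2% of all genes). By the brightest probes no arrestin-family gene was among these calls. MLXIPL, which encodes the glucose-responsive factor ChREBP, was not above background on any control array and gave 7.59, 7.66 and 7.31 at 3 days, at least 2.27-fold higher (adjusted p = 0.000418). DDIT4, an inhibitor of mTOR signalling, rose by log2 0.72 ± 0.19, a call lost in 4 of the 12 fits without 1 array (adjusted p up to 0.0735), and hexokinase HK2 fell by 1.13, with its second probe lower by log2 −0.85. By its brightest probe no other gene of this list passed against control in any treatment. A second probe of the arrestin-family gene ARRDC2 did pass at 3 days, at log2 1.33 (adjusted p = 0.00145 over probes), where the brightest probe gave −0.19. Among 29 uncalled genes of the 9 lists with more than 1 kept probe, 3 had another probe that passed at 3 days: ARRDC2, AMER1 and the aldehyde dehydrogenase ALDH7A1 (log2 0.51).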

How the data were processed

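Intensities of 47231 probes, one mean bead signal per probe and array on a linear scale, were deposited without normalization, with a detection p-value per probe and array that the authors' GenomeStudio software (version not given in the sources used here) computed against negative control beads. The authors also deposited quantile-normalized intensities, which served as an alternative. Positions on the single BeadChip follow the groups and cannot be told apart from them. The sample labels describe the controls as untreated, the design text as vehicle treated. The design calls replicates biological triplicates, and no label names separate cultures, so p-values may measure only the spread between these samples.

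Background was corrected by normexp with the negative controls inferred from detection p-values (offset 16). Intensities were then quantile normalized and put on the log2 scale (limma 3.58.1; R 4.3.3). Probes detected at p under 0.05 on at least 3 of 12 arrays were kept (19293), and the brightest kept probe stood for a gene. Symbols came from GEO's platform annotation, updated through gene IDs. Of all probes 30112 had 1 symbol, 8 several and 17111 none. lmFit and eBayes fitted 4 group means to the 12 arrays (8 residual and 5.65 prior degrees of freedom), and p-values were adjusted by Benjamini-Hochberg over 11139 genes, or over 19293 probes for second probes. Tests were two-sided. Where a gene was undetected on all arrays of a group, its fold is a lower bound against the lowest signal of a detected probe on each of those arrays, and fitted log2 values of such genes depend on the offset. Precision is limited by the number of arrays. The code was tested on simulated data.

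TGACNNNGC and CACGTG were searched in RefSeq promoter windows on both strands, as was the carbohydrate response element (a pair of CACGNG motifs 5 bases apart, of which CACGTG is 1 form). Members and lists were chosen with earlier results of these data known. Named genes were all members with every probe, per list and comparison at most the 3 called genes of largest change, and the 3 genes best correlated with each member past the F test. The alternatives were other normalizations, background settings, filters, samples, variance models, thresholds, the replicate number as a block, and each array left out in turn. Leaving out control replicate 1 together with cisplatin replicate 3, and the counts of the lists without doubted arrays, were added after the data were seen.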

Additional observations from a re-analysis of the deposited data

Results flagged for a closer look

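SQSTM1 and TXNIP changed more after 3 days of 5-aza than after 1 day, by the test of the difference itself: log2 1.16 for SQSTM1 (higher on 3 of 3 arrays) and log2 1.49 for TXNIP (higher on 3 of 3 arrays), with adjusted p of 0.00116 and 0.000241 in limma. Outside the probes that were tested, a second NQO1 probe (ILMN_2354953) was not detected on any control array, where it was at most 6.25, and was detected on 1 array, 3 day replicate 2, at a log2 normalized intensity of 6.74, by the scanner software's detection call. The other 3 day arrays gave 6.06 and 6.05 and were not detected, and the brighter NQO1 probe was highest of the 3 day arrays on the same replicate, at 9.71.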

How the results depend on the processing

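The 3 day calls of SQSTM1 and TXNIP against control, 1 day and cisplatin held under every alternative run, and no called member changed sign. Over all member differences and alternatives 1194 kept their side of the threshold, 23 lost a call, 38 gained one and 25 uncalled differences changed sign. At 3 days against control 6 members were called with only the 6 arrays compared, 7 without the cisplatin arrays and 7 with array weights (34.2%, 38.4% and 36.6% of all genes), and 2 to 6 with an array left out (8.98% to 28%). Between 3 days and 1 day the same settings gave 5, 5 and 5 (30.6%, 26.3% and 33.7%, beside 9.01%), and 2 to 4 with an array left out (4.62% to 16.5%), with 4 (16.7%) when control replicate 1 and cisplatin replicate 3 were both left out. For 3 days against cisplatin only the 6 arrays compared gave 3 members (7.28%), and leaving out an array gave 4 to 8 (12.9% to 40.9%). Cisplatin against control gave 0 to 3 with an array left out, 3 of them without cisplatin replicate 1 (27.6%). The F test gave 7 with array weights, 2 at an adjusted p under 0.01, and 2 to 8 with an array left out, lowest without 3 day replicate 1 and highest without cisplatin replicate 1. The cause was not tested.

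Median scaling moved the median of all genes to log2 −0.17 at 3 days, and calls over all genes were then 622 higher and 1102 lower instead of 1172 and 739; NQO1 was called lower as well (−0.71). Cyclic loess gave 1324 and 613, and cisplatin calls of 194 and 39 instead of 100 and 57 (144 and 10 with median scaling). Replicate numbers gave no clear pairing of the samples: same-numbered arrays correlated at −0.522 to 0.225 after group means were removed. Between the 1 day and 3 day arrays each best match had the same number, though at r of only 0.014 to 0.044. With the replicate number as a block 2 members were called at 3 days, since GCLM was lost (adjusted p = 0.0566), and 1606 genes instead of 1911. Groups of 3 arrays and the dim second probes of GCLM and NQO1, near background, limit what could be detected.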

Other observations

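Among the other redox genes, several differed between 3 days of 5-aza and cisplatin, groups in which drug and time cannot be told apart. In the glutathione list GSTA4 and MGST2 were higher after 5-aza by log2 1.76 and 1.21, while GPX1, the abundant cytosolic glutathione peroxidase, was lower by log2 −1.12. In the thioredoxin list TXNRD2, the mitochondrial reductase, was lower by log2 −0.93, and MSRA, detected on all 3 cisplatin arrays and on no 3 day array, was at least 1.48-fold lower. OXR1, detected on 1 of the 3 cisplatin arrays, was higher by log2 1.39 and FOXO4 lower by −1.20. Glucose handling genes HK2 and SLC2A1, the glucose transporter, were lower by log2 −1.08 and −0.88, with the second HK2 probe at −0.36, and MLXIPL, detected on 1 of the 3 cisplatin arrays, was higher by log2 1.48. Of 130 pathway genes 19 were higher and 14 lower in this comparison, 25.4% beside 25.1% of all genes.

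Against control, cisplatin called 3 of the 130 genes higher and 1 lower (3.08% beside 1.41% of all genes): SESN1, TXNRD2 (log2 0.86), GPX1 (log2 0.75, adjusted p = 0.0499) and FOXO4 (log2 −0.86). The TXNRD2 call was lost in 9 of the 12 fits without 1 array, the GPX1 call in 10 and the FOXO4 call in 3, those without a control array, while SESN1 remained in all 12. Without cisplatin replicate 1 there were 23 higher and 24 lower (36.2% beside 27.6% of all genes).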
